A study of Mus musculus with 12 samples.

Results

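The genes described here are 33 genes of the cell cycle and of DNA replication, out of 56980 genes in the deposited count table. They were chosen by name from textbook knowledge, with earlier results of these data known. Of them, 19 act mainly in mitosis and 14 in copying DNA. All 33 were found in the table by their Ensembl identifiers. RNA was sequenced in bulk from the hippocampus of 12 male mice, with 1 library per mouse and 4 groups of 3. Every mouse carried the AppNL-G-F allele, a humanised App knock-in with mutations that make amyloid-β build up in the brain. The groups were AppNL-G-F at 3 months, AppNL-G-F at 9 months, AppNL-G-F; Trem2 KO at 3 months and AppNL-G-F; Trem2 KO at 9 months. The mice with Trem2 are called App-KI and those without it Trem2-KO. No group without the knock-in was analysed here, so age and amyloid load cannot be told apart. Trem2 is a lipid-sensing receptor on microglia, the brain's resident macrophages.

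A dividing cell first copies its DNA and then separates the copies. Before S phase the Mcm2 to Mcm7 proteins are loaded on DNA as a helicase, Pcna clamps the polymerases to the template, and Rrm2 and Tyms supply nucleotides. In mitosis Cdk1 with cyclins A and B, the kinases Plk1 and Aurkb, and motor and spindle proteins divide the chromosomes, and Ube2c helps the anaphase-promoting complex destroy the cyclins. In the adult hippocampus the cells known to divide are neural progenitors of the dentate gyrus, oligodendrocyte precursors, and microglia that respond to injury or amyloid. Replication genes also serve DNA repair and are transcribed in cells that do not divide, whereas mitotic transcripts are largely restricted to the end of the cycle.

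Mitotic and replication genes are known for different promoter elements, the CHR with CCAAT boxes for the first and E2F sites for the second. RefSeq promoters (GRCm38.p6, 250 bases before to 50 after the start) were found for 27 of the 33 genes, 30 promoters in all. Both strands were searched for TTTGAA (the core of the CHR), CCAAT (bound by NF-Y), and the E2F-type words TTTGGCGC and TTCCCGCC. TTTGAA was found in 12 of 17 mitotic promoters (70.6%) and in 1 of 13 replication promoters (7.69%), against 17.9% of all 32851 promoters in the table. CCAAT was found in 88.2% of the mitotic and 76.9% of the replication promoters, against 37.4% of all. TTTGGCGC was found in 3 of 13 replication promoters (23.1%) and in no mitotic one, against 0.514% of all. TTCCCGCC was found in 2 of 13 replication promoters (15.4%) and in no mitotic one, against 2.19% of all. The matches are descriptions of sequence. Binding was not measured.

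The 200 bases before the start are shown for 5 genes that changed with age or genotype, with the matches in capitals. Top2a and Ube2c have many CCAAT matches and a TTTGAA match close to the start. Mcm6 has TTTGGCGC on the sense strand at 110 and again at 47 bases before the start. Rrm2 has 1 CCAAT match, and Dna2 has no match in this window.
Top2a (chr11:99024190-99024389, minus strand): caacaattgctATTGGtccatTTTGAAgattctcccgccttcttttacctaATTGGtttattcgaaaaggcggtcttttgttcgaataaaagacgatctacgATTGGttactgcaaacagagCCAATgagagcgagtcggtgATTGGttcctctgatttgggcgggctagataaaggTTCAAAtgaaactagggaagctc
Ube2c (chr2:164769729-164769928, plus strand): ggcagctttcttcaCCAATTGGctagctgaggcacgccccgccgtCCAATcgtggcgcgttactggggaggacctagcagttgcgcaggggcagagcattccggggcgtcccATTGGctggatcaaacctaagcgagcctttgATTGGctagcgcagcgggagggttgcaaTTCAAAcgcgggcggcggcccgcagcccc
Mcm6 (chr1:128359706-128359905, minus strand): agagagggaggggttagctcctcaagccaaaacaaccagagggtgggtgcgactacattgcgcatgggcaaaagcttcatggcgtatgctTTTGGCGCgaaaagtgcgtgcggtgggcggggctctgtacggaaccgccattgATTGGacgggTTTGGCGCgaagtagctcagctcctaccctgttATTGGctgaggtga
Rrm2 (chr12:24708054-24708253, plus strand): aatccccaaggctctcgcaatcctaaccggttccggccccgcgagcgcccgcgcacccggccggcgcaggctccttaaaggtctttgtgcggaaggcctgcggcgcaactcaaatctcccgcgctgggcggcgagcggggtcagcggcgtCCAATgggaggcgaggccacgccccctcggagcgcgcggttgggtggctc
Dna2 (chr10:62946829-62947028, plus strand): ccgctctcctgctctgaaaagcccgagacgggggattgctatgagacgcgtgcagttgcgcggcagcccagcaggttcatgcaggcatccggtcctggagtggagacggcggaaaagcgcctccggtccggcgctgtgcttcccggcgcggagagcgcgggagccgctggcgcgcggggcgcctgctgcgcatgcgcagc

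**Figure D1:**
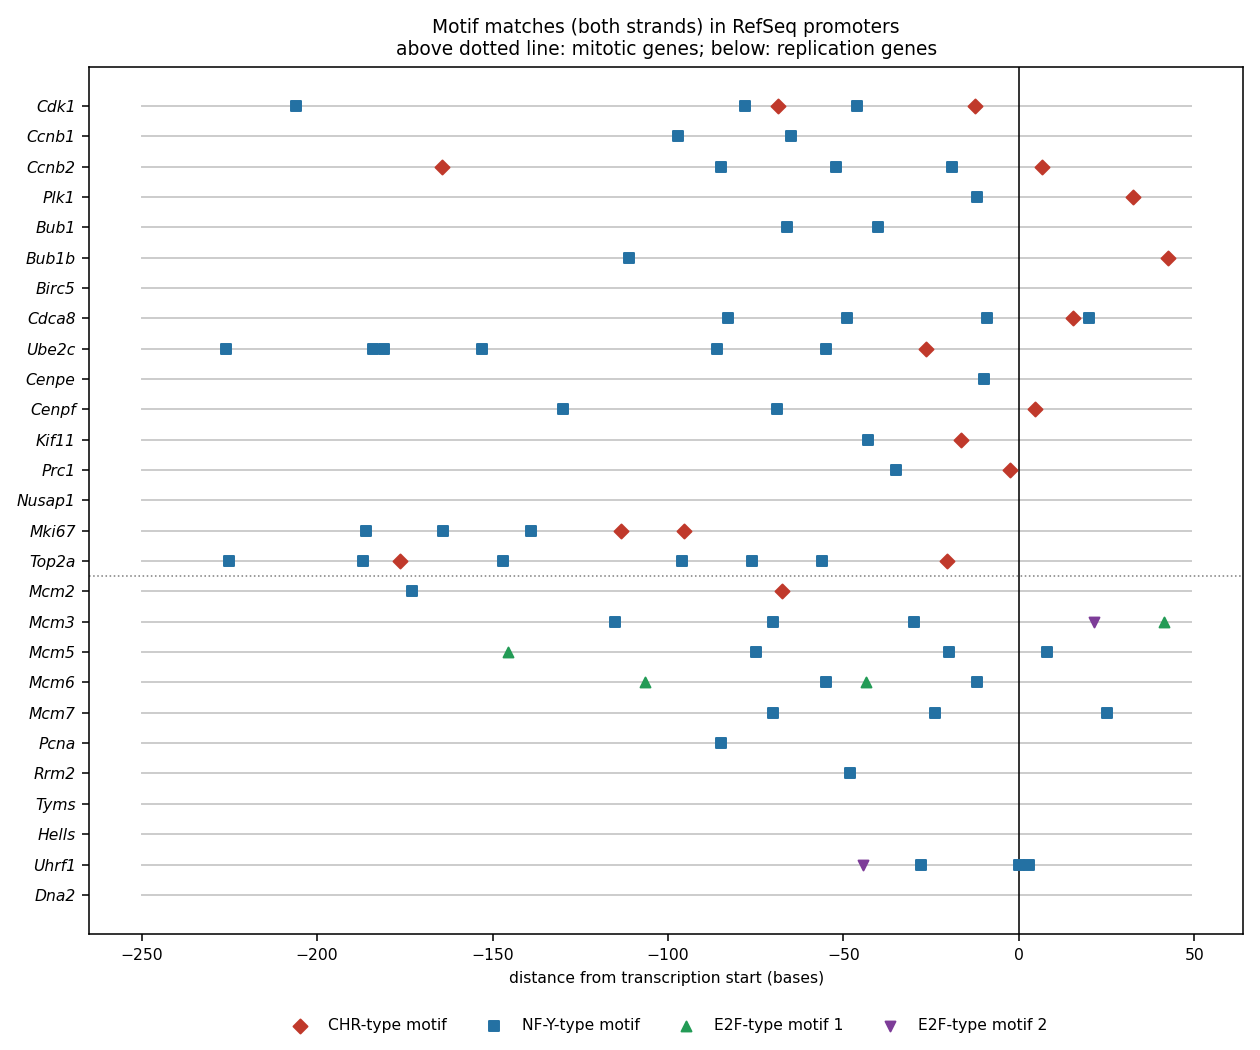
Motif matches on either strand in the first RefSeq promoter listed for each of 27 genes, by distance in bases from the transcription start (250 before to 50 after); diamonds are the CHR-type core, squares the NF-Y-type motif and triangles the E2F-type words. The diamonds lie almost all among the mitotic genes above the dotted line (11 of the 16 mitotic genes drawn), with 1 below it, and the triangles lie only below it.

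Libraries held between 14627892 and 24594655 counts. Levels are in CPM, counts scaled to library size, and 0 counts allow a level of up to 3 counts, which is 0.122 to 0.206 CPM by library (counting error only). Trem2 was 10.4, 8.05 and 9.17 CPM in App-KI and 1.85, 1.93 and 2.17 CPM in 3-month Trem2-KO mice and 55.6, 52.6 and 49.8 against 3.62, 3.83 and 3.77 CPM at 9 months. The genotypes were separate at both ages, with the Trem2-KO libraries lower. Markers of hippocampal principal neurons summed to between 436 and 532 CPM in all libraries. Markers of the choroid plexus, a neighbouring tissue, differed widely within groups, from 59.5 to 3080 CPM. Markers of meningeal fibroblasts summed to 324 to 469 CPM in Trem2-KO at 9 months and to 191 to 274 CPM in the other groups. Changes are log2 fold changes ± SE from edgeR's quasi-likelihood test over all 12 libraries, with Benjamini-Hochberg adjustment over 19152 genes. Genes with an adjusted p under 0.05 are called. Nothing beyond separate mouse identifiers describes how the 3 mice of a group were bred or housed, so p-values measure the spread between these libraries.

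Per kilobase of exon, the 10 most abundant of the 33 were replication genes. Averaged over all libraries, Pcna stood at 13.9 CPM per kilobase, Tipin at 11.2, Mcm6 at 5.88, Mcm4 at 5.82 and Mcm7 at 3.79. The highest mitotic gene by this measure, Ccnb2, stood at 0.658, Mki67 at 0.168, Cenpf at 0.0663 and Bub1 at 0.0612 CPM per kilobase. Among the mitotic genes by level lay 3 other replication genes, Hells at 0.497, Dna2 at 0.398 and Uhrf1 at 0.339. Exo1, a replication and repair nuclease, was the lowest of all at 0.0399. Exon lengths came from GENCODE M21, another release than the authors may have used.

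Of the 33 genes, 32 had enough counts to be tested. Bub1, a spindle checkpoint kinase, did not, with 1 to 13 counts per library. Among those tested, Exo1 had 0 to 12 counts, Ube2c 2 to 17 and Aurkb 3 to 21 per library. Their fitted changes carry wide intervals, with standard errors of up to 0.76 in a comparison of 2 groups. Several genes share sequence with others. Processed copies of Ccnb1, Ccnb2, Pcna and Tyms exist, and exons of Ube2c, Ccna2, Prc1 and Mcm7 overlap genes on the opposite strand. Their counts are uncertain since neither the strand setting nor the treatment of reads with several matches is known from the labels. For Ube2c, 22.8% of the exon bases overlap Tnnc2, a muscle troponin, which had 0 counts in every library.

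The widest set of changes was with age in Trem2-KO mice, where 5 of 32 genes were called (15.6%, against 8.70% of all genes tested). Ube2c, Top2a, Tpx2 and Rrm2 fell, and Mcm4 rose. A fit of only the 2 groups compared called 2 of these genes, Ube2c and Top2a. The median change of the 32 was -0.25, against -0.37 for the 18 mitotic and -0.06 for the 14 replication genes. Of the 32, 24 had a negative value. An unadjusted p under 0.05 was found for 9 genes, against 22.7% of all genes. Of these, 7 were lower and 2 higher, against 9.92% and 12.7% of all genes, and DESeq2 called 2 of the 32 against 11.4% of all genes it adjusted.

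Ube2c, the ubiquitin-conjugating enzyme of the anaphase-promoting complex, had 17, 13 and 17 counts in Trem2-KO at 3 months and 3, 2 and 3 counts at 9 months. In App-KI it had 11, 15 and 11 counts at 3 months and 6, 14 and 3 at 9 months. The Trem2-KO libraries of the 2 ages did not overlap, and those at 9 months were at or under 3 counts. With counts summed over libraries and scaled to depth, the ratio of 9 to 3 months was 0.159 in Trem2-KO, with a 95% counting interval of 0.0647 to 0.339. In App-KI the ratio was 0.736, with an interval of 0.417 to 1.27 that includes no change. Both intervals hold counting error only and leave out the spread between mice. The model gave -2.69 ± 0.57 (edgeR adjusted p = 0.00528) in Trem2-KO. DESeq2 left this gene without an adjusted p there. It was called in Trem2-KO under all 17 other alternative fits, among them those with each single library left out.

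Top2a, the topoisomerase that untangles chromosomes before they part, stood at 2.81, 2.68 and 2.60 CPM in 3-month Trem2-KO mice and at 1.32, 1.10 and 0.902 CPM at 9 months. In App-KI it stood at 2.77, 1.94 and 2.0 CPM at 3 months and 2.27, 1.72 and 1.05 CPM at 9 months. The 2 ages were separate in Trem2-KO and overlapped in App-KI. It fell by 1.27 ± 0.27 in Trem2-KO (edgeR adjusted p = 0.00513) and was called there under all 18 alternative fits. In App-KI its value was -0.41 ± 0.26 (edgeR adjusted p = 0.482).

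Tpx2, which activates Aurora A on the spindle, lay between 2.61 and 3.03 CPM in the other 9 libraries and was lower in Trem2-KO at 9 months. It stood at 1.68, 2.06 and 1.91 CPM in that group, and at 2.88, 2.99 and 2.75 CPM in Trem2-KO at 3 months. App-KI had 2.61, 3.03 and 2.98 CPM at 3 months and 2.85, 2.73 and 2.62 CPM at 9 months. The change with age in Trem2-KO was -0.61 ± 0.19 (edgeR adjusted p = 0.0467), a call held in 3 of 18 alternatives. It was lost in every fit that left out any 1 library, and DESeq2 gave an adjusted p of 0.0912.

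Ccnb1, the cyclin B that drives entry into mitosis, stood at 1.14, 1.03 and 1.61 CPM in App-KI at 3 months and 0.475, 0.644 and 0.918 CPM at 9 months. In Trem2-KO it stood at 1.51, 0.967 and 1.11 CPM at 3 months and 0.618, 0.767 and 0.689 CPM at 9 months. All 6 libraries at 9 months were below all 6 at 3 months. Neither genotype alone passed the test (-0.92 ± 0.34 in App-KI, edgeR adjusted p = 0.125; -0.77 ± 0.33 in Trem2-KO, edgeR adjusted p = 0.170).

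Mki67, the proliferation antigen Ki-67, was 2.04, 1.14 and 2.05 CPM in App-KI at 3 months and 0.844, 1.39 and 1.51 CPM at 9 months. In Trem2-KO it was 3.43, 2.11 and 1.35 CPM at 3 months and 1.72, 1.96 and 0.796 CPM at 9 months. The groups overlapped at each step. The ratio of 9 to 3 months was 0.702 in App-KI, with a 95% interval of 0.399 to 1.23, and 0.673 in Trem2-KO, with an interval of 0.396 to 1.14.

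**Figure D2:**
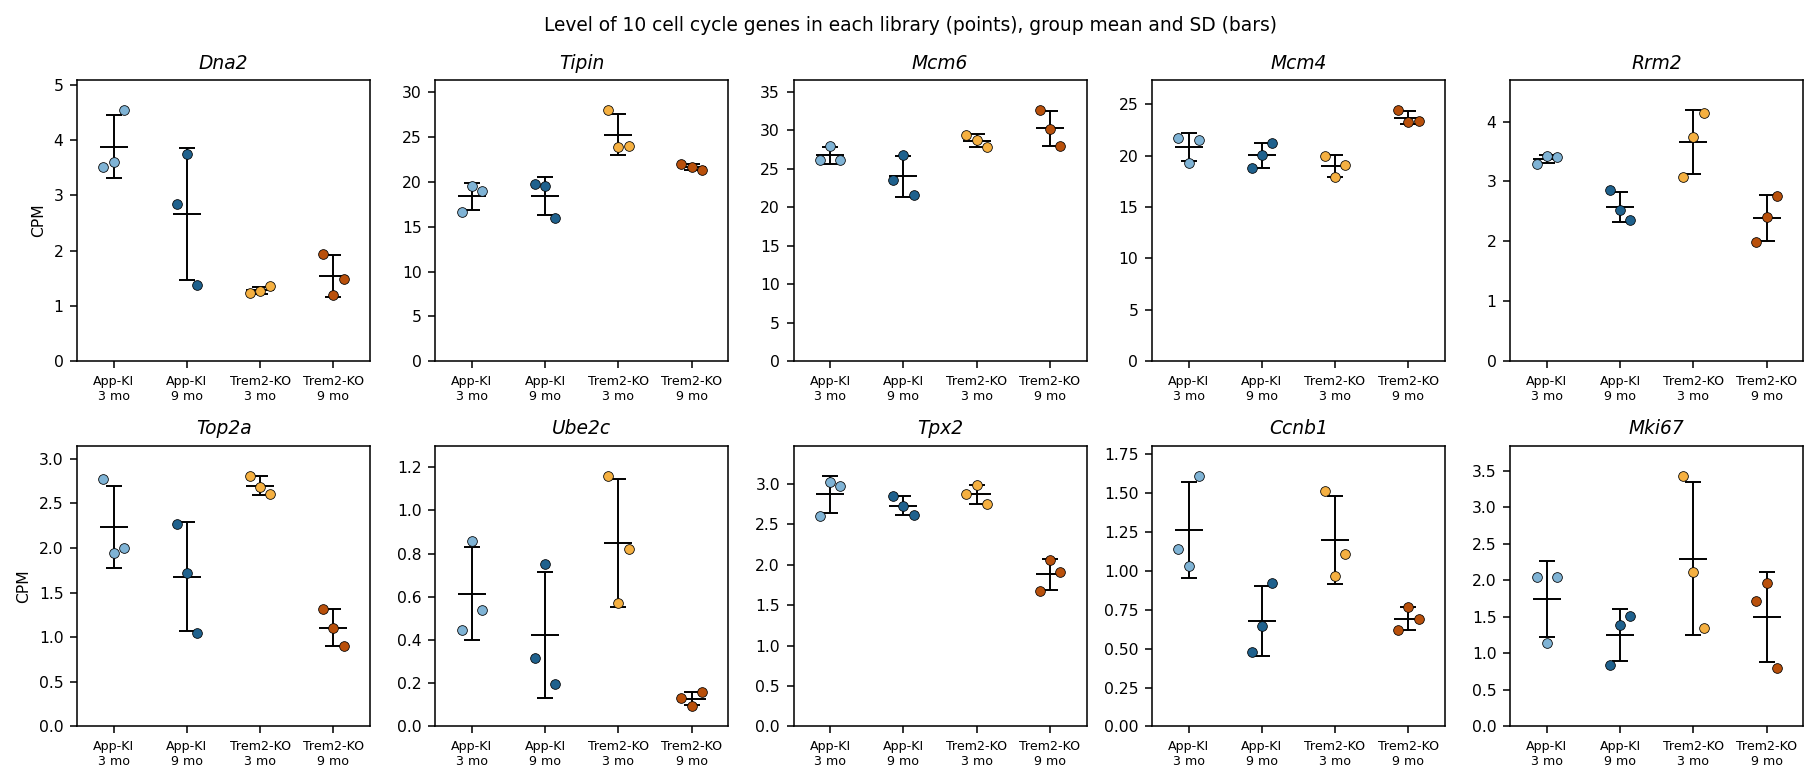
CPM of 10 genes in each library (points), with the group mean and SD over 3 libraries (bars), for App-KI (blue) and Trem2-KO (orange; these mice also carry the App knock-in) at 3 and 9 months. Top2a, Ube2c and Tpx2 are lowest in Trem2-KO at 9 months, Dna2 is between 1.23 and 1.35 CPM in 3-month Trem2-KO mice, and the points of Mki67 overlap between groups.

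The other mitotic genes passed no test with age. Prc1 and Nusap1, the most abundant of them, had small fitted changes with age in Trem2-KO, each with an SE of 0.21. Prc1, which bundles the midzone of the spindle, stood at 2.57, 2.68 and 2.93 CPM in App-KI at 3 months and 2.21, 2.73 and 3.54 CPM at 9 months. In Trem2-KO it stood at 1.99, 3.12 and 2.31 CPM, then 2.47, 2.59 and 2.65 CPM, a change of 0.03 ± 0.21. Nusap1, a spindle microtubule binder, changed by -0.01 ± 0.21 with age in Trem2-KO, from 1.92, 2.11 and 2.75 to 1.90, 2.35 and 2.55 CPM. In App-KI it ran from 2.12, 2.63 and 2.63 to 2.74, 2.84 and 2.36 CPM.

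Bub1b, the checkpoint protein BubR1, was 3.01, 2.73 and 2.41 CPM in 3-month Trem2-KO mice and 2.43, 1.68 and 2.17 CPM at 9 months, against 2.04, 1.66 and 2.59 and then 2.06, 3.22 and 1.57 CPM in App-KI. Ccna2, cyclin A, was 1.92, 2.20 and 1.88 CPM and then 1.85, 1.82 and 1.27 CPM in Trem2-KO, against 2.65, 1.83 and 2.73 and then 2.48, 2.41 and 1.77 CPM in App-KI. Cdca8, borealin of the chromosomal passenger complex, was 1.64, 2.68 and 1.73 CPM and then 1.68, 1.58 and 1.70 CPM in Trem2-KO, against 3.14, 2.45 and 1.51 and then 1.69, 2.36 and 1.57 CPM in App-KI. In Trem2-KO the ages overlapped for Bub1b and Cdca8, while for Ccna2 all 9-month libraries were just below all 3-month ones (1.85 against 1.88 CPM at the nearest). In App-KI all of them overlapped. Their changes with age in Trem2-KO were -0.37 ± 0.25, -0.27 ± 0.24 and -0.31 ± 0.28 in that order.

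Of the remaining mitotic genes, Aurkb, the kinase of the passenger complex, had the largest fitted change with age in Trem2-KO at -1.89 ± 0.68 (edgeR adjusted p = 0.0900), from 5 to 21 counts at 3 months to 3 to 5 counts at 9 months. The centromere protein Cenpf had -0.75 ± 0.39 in each genotype. Cdk1, the mitotic kinase, and its partner cyclin Ccnb2, the kinase Plk1, the passenger protein Birc5 (survivin), and the motors Cenpe and Kif11 had values between -0.55 and 0.07 with age in Trem2-KO and between -0.15 and 0.30 in App-KI.

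Age in App-KI mice, where Trem2 was present, gave no call by edgeR among the 32 genes, against 6.66% of all genes. At an unadjusted p under 0.05 there was 1 gene, Ccnb1, against 17.1% of all genes, and DESeq2 called 0, against 8.18%. The median change was -0.05. In 16 of the 18 tested mitotic genes the 95% interval lay below a doubling, and Cdk1 and Plk1, with 8 to 23 counts per library, were the others. The highest upper limit was 2.17-fold, for Plk1. No mitotic gene passed the test for a rise in either genotype.

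Summed over the 19 mitotic genes, App-KI libraries had 31.9, 29.4 and 31.5 CPM at 3 months and 27.2, 31.4 and 27.5 CPM at 9 months. Trem2-KO libraries had 35.1, 31.5 and 30.9 CPM at 3 months and 25.1, 23.0 and 22.6 CPM at 9 months. The group means were 30.9 ± 1.33, 28.7 ± 2.36, 32.5 ± 2.25 and 23.6 ± 1.30 CPM (SD, n = 3) in the same order. The 9-month mean was 0.929 of the 3-month mean in App-KI and 0.726 of it in Trem2-KO. Every Trem2-KO library at 9 months was below every other library. A sum over genes chosen with earlier results in view has no test here.

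The difference in the age effect between the genotypes was tested gene by gene as an interaction, and none of the 32 genes was called by edgeR or by DESeq2, against 0.266% and 0.591% of all genes. At an unadjusted p under 0.05 there were 4 genes, against 6.04% of all. Ube2c had -2.21 ± 0.78, Top2a -0.86 ± 0.38 and Tpx2 -0.55 ± 0.26, each lower, and Mcm4 had 0.38 ± 0.12, higher. Their edgeR adjusted p-values lay between 0.397 and 0.821, so a difference between the genotypes in the change with age was not shown for any of these genes. The interval of the interaction was below a doubling in either direction for 4 of the 18 mitotic and 11 of the 14 replication genes.

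**Figure D3:**
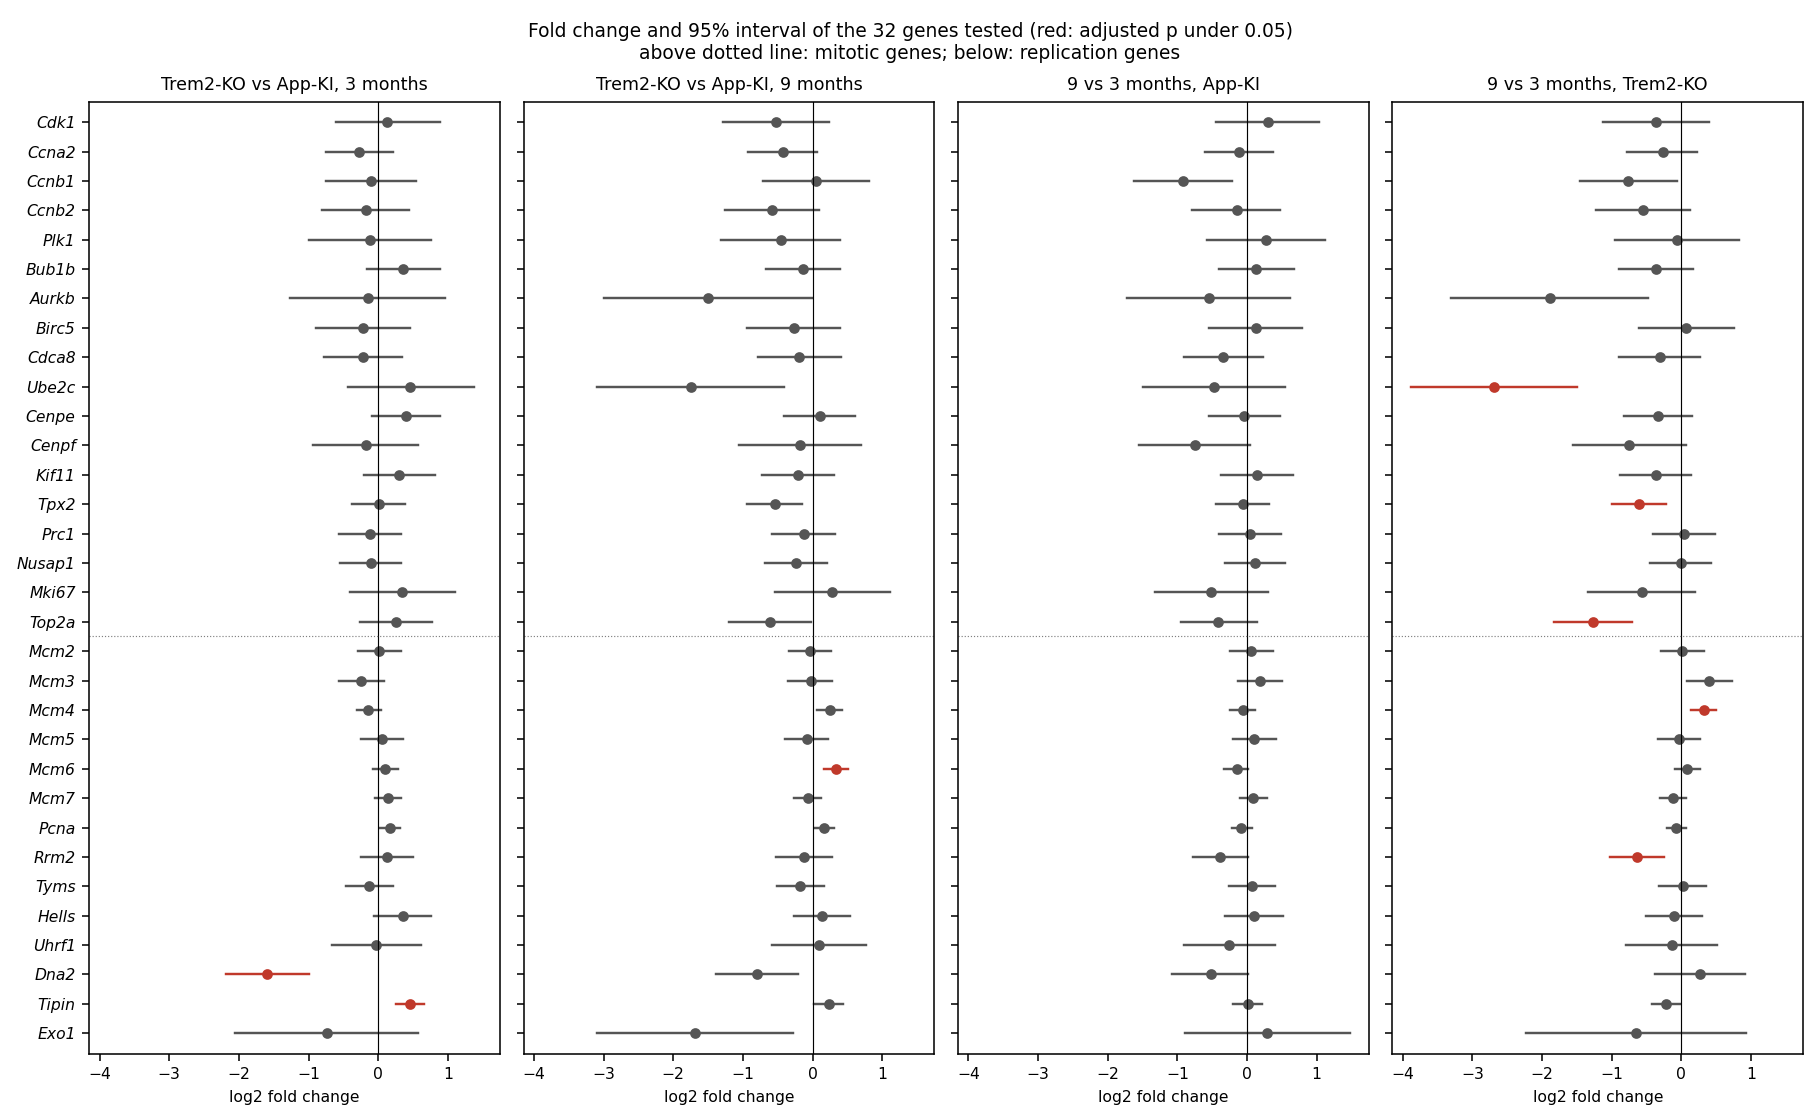
Log2 fold change (point) and 95% interval (line) of the 32 genes tested in each of 4 comparisons, red where the adjusted p was under 0.05, with mitotic genes above the dotted line and replication genes below. The widest intervals belong to Aurkb, Ube2c and Exo1, the genes with the fewest counts; most values in the panel for age in Trem2-KO lie left of 0 (24 of 32).

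Among the replication genes 2 were called with age in Trem2-KO, in opposite directions. Mcm4, a helicase subunit, stood at 20.0, 17.9 and 19.1 CPM in 3-month Trem2-KO mice and 24.4, 23.3 and 23.4 CPM at 9 months. In App-KI it stood at 21.7, 19.3 and 21.5 CPM at 3 months and 18.8, 20.1 and 21.2 CPM at 9 months. Trem2-KO at 9 months was above all other libraries. It rose by 0.32 ± 0.09 with age in Trem2-KO (edgeR adjusted p = 0.0225), and the call was lost without 3-month replicate 2 or 3 or 9-month replicate 1 or 2 of that genotype.

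Rrm2, the regulated subunit of ribonucleotide reductase, went the other way. It stood at 3.08, 3.74 and 4.14 CPM in 3-month Trem2-KO mice and 1.99, 2.40 and 2.76 CPM at 9 months, and at 3.30, 3.43 and 3.41 CPM and then 2.85, 2.52 and 2.36 CPM in App-KI. All 9-month libraries were below all 3-month libraries. The change was -0.64 ± 0.19 in Trem2-KO (edgeR adjusted p = 0.0388; 0.0570 by DESeq2) and -0.39 ± 0.19 in App-KI (edgeR adjusted p = 0.304). The call in Trem2-KO was lost in 9 of 18 alternatives, among them the fit of only the 2 groups compared.

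Averaged over both genotypes, a contrast chosen after the values were seen, 4 of 32 genes were called with age, all lower (12.5%, against 17.0% of all genes called in either direction and 7.70% called lower). Ube2c fell by 1.58 ± 0.38, Top2a fell by 0.84 ± 0.19, Ccnb1 fell by 0.84 ± 0.24 and Rrm2 fell by 0.51 ± 0.13 on the log2 scale. Their edgeR adjusted p-values were 0.00607, 0.00345, 0.0174 and 0.0104. Ccnb1 was no longer called without App-KI 3-month replicate 3, and the other 3 were called in all 17 alternatives run for this contrast. Unadjusted, 9 genes had a p under 0.05 against 28.6% of all, and DESeq2 called 4 against 17.0%. With both directions pooled, the share called by edgeR was below that of all genes, while the share called lower was above it.

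Of the other helicase subunits, Mcm7 stood at 15.3 to 17.0 CPM in App-KI and 16.7 to 19.4 CPM in Trem2-KO at 3 months, and at 16.7 to 17.6 and 15.9 to 16.6 CPM at 9 months. Mcm2 stood between 5.85 and 7.94 CPM in all libraries. Neither was called in any comparison. Mcm3 had 0.40 ± 0.15 and Mcm5 -0.04 ± 0.15 with age in Trem2-KO, and neither passed. The summed level of the 6 subunits was 80.9 ± 1.20 and 79.8 ± 3.06 CPM in App-KI mice of 3 and 9 months, against 82.0 ± 1.29 and 88.3 ± 5.04 CPM in Trem2-KO (SD, n = 3).

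Loss of Trem2 was associated with 2 called genes at 3 months, Dna2 lower and Tipin higher (6.25% of 32, against 0.590% of all genes). These genes were already among the largest genotype changes when the list was drawn up, so the count is a description. The median change was -0.01. Another 1 passed only an unadjusted p under 0.05, which made 3 against 11.2% of all, and DESeq2 called 2 against 1.67%.

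Dna2, a nuclease and helicase that trims flaps and broken ends during replication and repair, stood at 3.51, 3.60 and 4.54 CPM in App-KI at 3 months and at 1.23, 1.27 and 1.35 CPM in Trem2-KO. At 9 months App-KI had 2.85, 3.75 and 1.38 CPM and Trem2-KO had 1.94, 1.20 and 1.48 CPM. The genotypes were separate at 3 months, while at 9 months App-KI replicate 3 lay among the Trem2-KO libraries. The change was -1.59 ± 0.28 at 3 months (edgeR adjusted p = 0.0105) and -0.80 ± 0.28 at 9 months (edgeR adjusted p = 0.185). The call at 3 months was lost without App-KI replicate 3 or without any 1 of the 3 Trem2-KO libraries. The call at 9 months was gained without App-KI replicate 3.

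Tipin, which with Timeless protects stalled replication forks, stood at 16.7, 19.5 and 19.0 CPM in App-KI at 3 months and at 28.0, 23.9 and 24.0 CPM in Trem2-KO. At 9 months it stood at 19.8, 19.5 and 16.0 CPM in App-KI and 22.0, 21.7 and 21.3 CPM in Trem2-KO. The genotypes were separate at both ages. The difference was 0.46 ± 0.10 at 3 months (edgeR adjusted p = 0.0320) and 0.23 ± 0.10 at 9 months (edgeR adjusted p = 0.290). Leaving out any 1 of the 6 libraries at 3 months ended the call there.

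At 9 months 1 gene was called between the genotypes, Mcm6, higher in Trem2-KO (3.12% of 32, against 2.08% of all genes). Mcm6, a helicase subunit, stood at 23.6, 26.8 and 21.6 CPM in App-KI and 32.6, 30.2 and 28.0 CPM in Trem2-KO at 9 months, against 26.1, 28.0 and 26.1 and 29.4, 28.8 and 27.8 CPM at 3 months. The genotypes were separate at 9 months, and at 3 months they overlapped between 27.8 and 28.0 CPM. The difference was 0.33 ± 0.09 (edgeR adjusted p = 0.0436), a call held in 7 of 18 alternatives. The median of the 32 genes was -0.16, and of the mitotic genes -0.25. In all, 10 genes had an unadjusted p under 0.05, against 13.6% of all, with 4 higher and 6 lower, against 7.02% and 6.63%. DESeq2 called 1 against 3.27%. The 6 lower were Aurkb, Ube2c, Tpx2, Top2a, Dna2 and Exo1, and the 4 higher were Mcm4, Mcm6, Pcna and Tipin.

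Averaged over both ages, a contrast likewise chosen after the values were seen, 3 of 32 genes were called between the genotypes (9.38%, against 4.14% of all). Dna2 and Tipin were already among the largest genotype changes when the list was drawn up, so this count is also a description. Dna2 fell by 1.19 ± 0.20 (edgeR adjusted p = 0.00122), Tipin rose by 0.34 ± 0.07 (edgeR adjusted p = 0.00577), and Mcm6 rose by 0.22 ± 0.06 (edgeR adjusted p = 0.0454). Dna2 and Tipin were called in all 17 alternatives run for this contrast, and Mcm6 in 6. Pcna, the sliding clamp, stood at 33.2, 30.7 and 32.5 CPM in App-KI and 37.1, 35.9 and 35.3 CPM in 3-month Trem2-KO mice and at 30.2, 29.2 and 32.1 against 33.5, 34.5 and 34.7 CPM at 9 months. Every Trem2-KO library was above every App-KI library. Its difference was 0.17 ± 0.05, with an edgeR adjusted p of 0.0531 and 0.0468 by DESeq2. Unadjusted, 6 genes had a p under 0.05 against 18.0% of all, and DESeq2 called 4 against 6.51%.

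Tyms, which makes thymidylate, stood at 8.07, 6.96 and 8.10 CPM in App-KI and 5.82, 8.40 and 6.84 CPM in 3-month Trem2-KO mice and at 8.81, 6.44 and 9.12 against 6.13, 7.28 and 8.11 CPM at 9 months. The groups overlapped at both ages. Hells, a chromatin remodeller, Uhrf1, which keeps DNA methylation through replication, and Exo1 were called in no comparison. Summed over the 14 replication genes, the group means were 152 ± 3.77 and 147 ± 2.50 CPM in App-KI mice of 3 and 9 months, against 161 ± 1.52 and 161 ± 4.45 CPM in Trem2-KO (SD, n = 3). No App-KI library exceeded 156 CPM and no Trem2-KO library was below 156 CPM.

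Other genes of the same processes were counted in lists fixed by role. Of all genes tested, 0.590%, 2.08% and 6.66% were called between the genotypes at 3 months, at 9 months and with age in App-KI, and 11.2%, 13.6% and 17.1% had an unadjusted p under 0.05. Of 53 tested S phase genes outside the 33, edgeR called none between the genotypes at either age or with age in App-KI (7, 2 and 4 at an unadjusted p under 0.05; DESeq2 called 0 in each). With age in Trem2-KO 1 was called, Dtl, which marks replication proteins for destruction, at -0.61 ± 0.19. The median there was -0.02, and 8.70% of all genes were called. Of 50 tested G2 and M phase genes, edgeR called none in the same 3 comparisons (7, 2 and 6 at an unadjusted p under 0.05; DESeq2 called 0 in each). With age in Trem2-KO Pbk, a mitotic kinase, fell by 1.68 ± 0.34 (edgeR adjusted p = 0.00373), and Anln, the cytokinesis scaffold anillin, rose by 0.43 ± 0.12 (edgeR adjusted p = 0.0493). Of these 50 genes 38 had a negative value with age in Trem2-KO, with a median of -0.24, and 31 in App-KI, with a median of -0.13. At an unadjusted p under 0.05, 14 were lower and 1 higher in Trem2-KO, against 9.92% and 12.7% of all genes.

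Pbk stood at 1.64, 1.32 and 1.69 CPM in 3-month Trem2-KO mice and 0.441, 0.623 and 0.371 CPM at 9 months, and at 0.815, 1.31 and 1.17 and then 0.896, 1.34 and 0.722 CPM in App-KI. As with Top2a and Tpx2, its libraries at the 2 ages were separate in Trem2-KO and overlapped in App-KI. Its interaction was -1.56 ± 0.47 (edgeR adjusted p = 0.353). Among 20 tested G1 cyclins, kinases and E2F and pocket proteins, Ccnd3, a cyclin D, rose by 0.59 ± 0.16 with age in Trem2-KO, and edgeR called no other in the 4 pairwise comparisons. None of 6 tested CDK inhibitors was called by edgeR in those 4 comparisons (1, 1, 0 and 2 at an unadjusted p under 0.05; DESeq2 called 0). Among 15 p53 target genes, Fas, a death receptor, rose by 0.66 ± 0.17 with age in App-KI, and Bax, which permeabilises mitochondria, fell by 0.29 ± 0.08 with age in Trem2-KO.

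Marker genes of the cell types that can divide moved in different directions. The 18 pan-microglial markers summed to 540 ± 16.7 CPM at 3 months and 1630 ± 61.8 CPM at 9 months in App-KI, a ratio of 3.02, and to 507 ± 11.9 and 891 ± 29.3 CPM in Trem2-KO, a ratio of 1.76 (SD, n = 3). With age, edgeR called 18 of 18 higher in App-KI and 16 of 18 in Trem2-KO, and called 16 lower in Trem2-KO than in App-KI at 9 months. Of all genes, 6.66%, 8.70% and 2.08% were called in those comparisons, in either direction. With age, the mitotic sum was 0.929 of its 3-month level in App-KI and 0.726 of it in Trem2-KO. That sum pools all cell types of the tissue, and its relation to the microglial markers was not tested. In bulk tissue, fewer cells of a type and less RNA per cell cannot be told apart. A rise of the microglial markers is therefore not a count of cells or of divisions.

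Markers of immature neurons, the progeny of dividing progenitors, were lower at 9 months. The 8 genes summed to 227 ± 10.8 and 193 ± 10.1 CPM in App-KI at 3 and 9 months, and to 236 ± 8.18 and 193 ± 8.04 CPM in Trem2-KO (SD, n = 3). All 6 libraries at 9 months were at or below 202 CPM and all 6 at 3 months at or above 220 CPM. With age edgeR called 2 of 8 lower in App-KI and 6 of 8 in Trem2-KO. Of all genes, 6.66% and 8.70% were called in those comparisons, in either direction. No interaction was called by edgeR or DESeq2 (1 at an unadjusted p under 0.05, Igfbpl1). Igfbpl1, a marker of newborn neurons, fell by 3.58 ± 0.52 in App-KI (edgeR adjusted p = 0.000151) and changed by -1.76 ± 0.39 in Trem2-KO (edgeR adjusted p = 0.00817). Its interaction was 1.82 ± 0.72 (edgeR adjusted p = 0.642). At 9 months it had 1, 6 and 2 counts in App-KI and 21, 17 and 4 in Trem2-KO. Dpysl3, a cytoskeletal protein of growing axons, had -0.36 ± 0.08 in App-KI and -0.54 ± 0.08 in Trem2-KO, both called. Doublecortin (Dcx), a microtubule protein of migrating neuroblasts, fell by 0.60 ± 0.13 in Trem2-KO (edgeR adjusted p = 0.00722) and had -0.34 ± 0.13 in App-KI (edgeR adjusted p = 0.151). Sox11, a transcription factor of newborn neurons, fell by 0.43 ± 0.08 in Trem2-KO (edgeR adjusted p = 0.00153).

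The 10 neural progenitor markers summed to 159 ± 5.16 and 157 ± 6.45 CPM in App-KI and to 163 ± 11.5 and 160 ± 5.61 CPM in Trem2-KO at 3 and 9 months. Many of them are also made by astrocytes. Of these, 8 were tested, and Nes, the filament nestin, rose by 0.57 ± 0.14 with age in Trem2-KO (edgeR adjusted p = 0.0128). Eomes, which marks intermediate progenitors, had 33, 13 and 0 counts in Trem2-KO at 9 months, against 5, 1 and 0 in App-KI. At 3 months it had 6, 10 and 12 counts in App-KI and 9, 9 and 12 in Trem2-KO. Within Trem2-KO at 9 months, Eomes and Igfbpl1 were both lowest in replicate 3. That library also had the lowest choroid plexus sum of its group, 87.9 CPM. A link between these levels was not tested.

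The 12 oligodendrocyte precursor markers summed to 415 ± 30.8 and 431 ± 15.3 CPM in App-KI and to 397 ± 10.4 and 378 ± 12.1 CPM in Trem2-KO at 3 and 9 months. At 9 months Gpr17, Olig2 and Olig1 were lower in Trem2-KO, by log2 fold changes of -0.52 ± 0.09, -0.46 ± 0.08 and -0.28 ± 0.07. With age in Trem2-KO, 2 of the 12 markers were called lower, Gpr17 at -0.42 ± 0.09 and Enpp6, a marker of newly forming oligodendrocytes, at -0.53 ± 0.14. Pdgfra, the growth factor receptor of dividing precursors, rose with age in both genotypes, by 0.32 ± 0.08 in App-KI and 0.28 ± 0.08 in Trem2-KO. T and NK cell markers reached at most 3.29 CPM, and neutrophil markers at most 2.20 CPM, as a group mean. The part of progenitors, precursors, microglia or neighbouring tissue in the changes of the mitotic genes was not tested. In Trem2-KO at 9 months, where the mitotic sum was lowest, meningeal and perivascular fibroblast markers were highest, with 7 of 11 called higher with age. There 4 of 8 endothelial, 2 of 8 mural and 3 of 8 tested border macrophage markers were also called higher by edgeR. Of all genes, 8.70% were called with age in Trem2-KO, in either direction. The choroid plexus sum in Trem2-KO at 9 months was 3080, 2390 and 87.9 CPM. In the same libraries the mitotic sum was 25.1, 23.0 and 22.6 CPM. Whether these levels are linked was not tested.

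**Figure D4:**
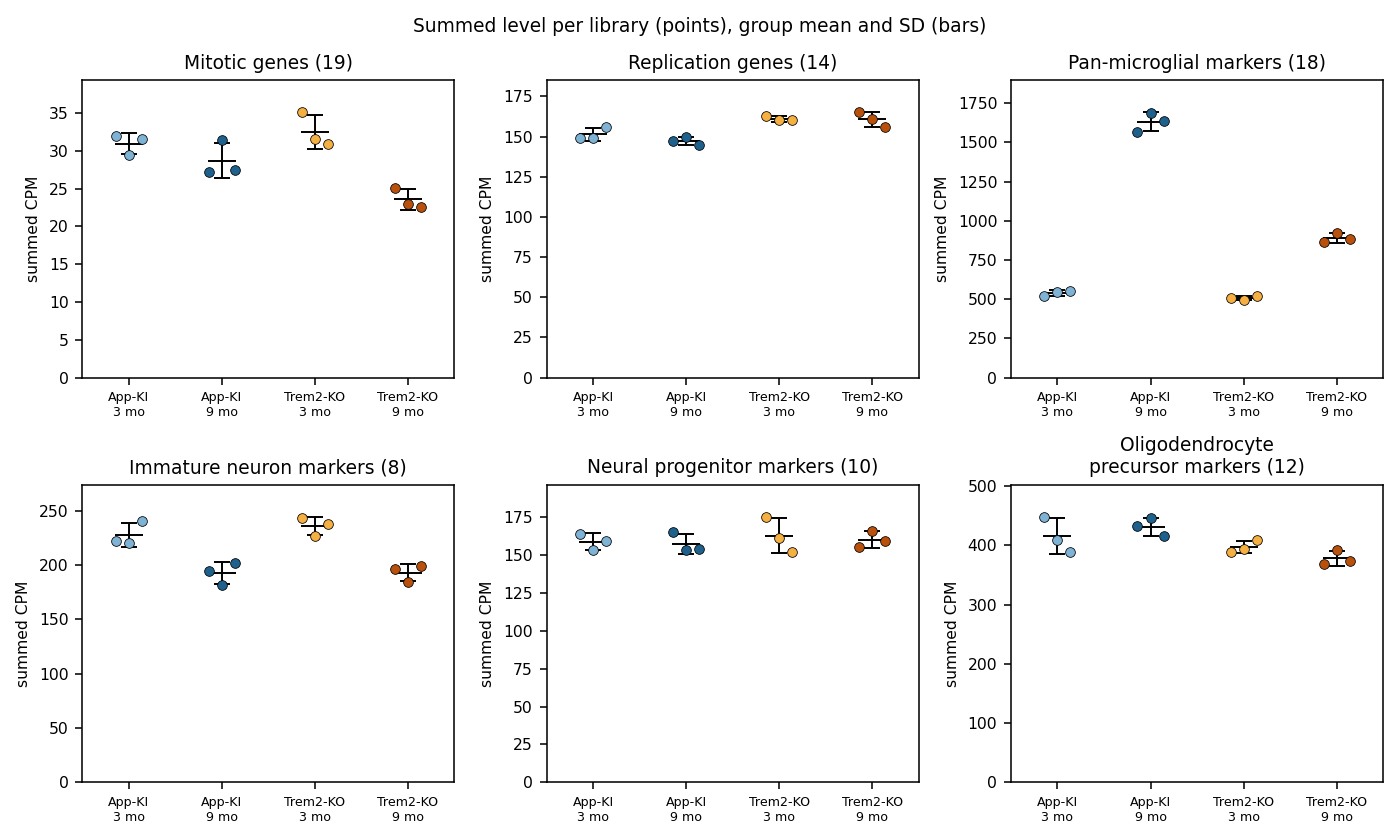
Summed CPM per library (points) with group mean and SD over 3 libraries (bars) for the mitotic and replication genes and for 4 sets of cell type markers; each axis starts at 0. Pan-microglial markers rise 3.02 times with age in App-KI and 1.76 times in Trem2-KO, the mitotic sum is lowest in Trem2-KO at 9 months, and immature neuron markers are lower at 9 months in both genotypes.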

How the data were processed

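The deposited values are whole-number read counts by gene and library, not normalised. Per the submitters' processing notes, STAR 2.7.10a, featureCounts 2.0.3, R 4.2.0, DESeq2 1.36.0 and the build GRCm39 were used. Per the labels' protocols, a column kit was used for RNA extraction and the SMART-Seq mRNA LP kit for libraries. The sources used here give no strand setting, annotation release or rule for multi-mapped reads.

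Symbols came from GENCODE M21 (GRCm38), which matched 52073 of 56980 identifiers. A filter on low counts (filterByExpr, minimum count 10 and minimum total 15) left 19152 genes. Libraries were scaled by TMM and tested with edgeR 4.0.16 (R 4.3.3, glmQLFit robust, 1 term per group over 12 libraries, 8 residual degrees of freedom), with Benjamini-Hochberg adjustment and calls under 0.05. Changes are unmoderated coefficients, and the SE was derived from the F statistic. The code was tested on simulated data. Alternatives were RLE and upper-quartile scaling, no filter, DESeq2 1.42.0, a non-robust fit, fits of the 2 groups compared, and each library left out.

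Groups came from the labels, and replicate numbers only name libraries. The 33 genes and all lists were chosen with earlier results of these data known. Named genes are all 33 by role, with values in every library for those called and for the most abundant others of each role, plus up to 4 called genes per list. The hippocampal neuron list, the 2 averaged contrasts, Tnnc2, Eomes and the values by library of Pbk were chosen after values were seen. Some items that fall under the rule are not reported here.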

Additional observations from a re-analysis of the deposited data

Results flagged for a closer look

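The effect of the knockout on Trem2 itself differed between the ages: the interaction of genotype and age was -1.61 ± 0.18 on the log2 scale (edgeR adjusted p = 7.96e-05), with changes of -2.21 at 3 months and -3.82 at 9 months. The age effect was 2.51 ± 0.10 in App-KI and 0.91 ± 0.14 in Trem2-KO. None of the 32 cell cycle and replication genes that were tested had a called interaction by edgeR or DESeq2, and 4 had an unadjusted p under 0.05.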

How the results depend on the processing

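No paired analysis was possible because the labels give no replicate numbers shared between groups. No value of the 33 genes changed direction where it was called. Genes called of the 32: between genotypes at 3 months 1 with the non-robust fit and 0 to 2 when single libraries were left out; at 9 months 0 with the non-robust fit, 0 with only the 2 groups compared, and 0 to 1 with libraries left out; with age in App-KI 0 in every alternative; with age in Trem2-KO 2 with DESeq2, 2 with only the 2 groups compared, and 2 to 4 with libraries left out; for the interaction 0 in every alternative; averaged, 2 to 3 between genotypes and 4 to 7 with age with libraries left out. All genes called: between genotypes at 3 months 113, but 347 without the filter, 264 with DESeq2, 218 with only the 2 groups compared and 26 (without Trem2-KO 3-month replicate 3) to 154 with libraries left out; at 9 months 398, but 831 without the filter (437 higher) and 175 (without App-KI 9-month replicate 3) to 556; with age 788 (without App-KI 9-month replicate 2) to 1523 in App-KI and 769 (without Trem2-KO 3-month replicate 3) to 1920 in Trem2-KO; for the interaction 51, but 187 without the filter, 102 with DESeq2 and 29 to 76; averaged, 458 to 930 for genotype and 2495 to 3497 for age. The cause was not tested. The calls of Tpx2, Rrm2, Mcm4 and Mcm6 lie close to the threshold, and the mitotic genes, at most 3.54 CPM in any library, are limited by their counts: standard errors of the pairwise changes ran from 0.18 to 0.71.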
